A study of Mus musculus with 36 samples.

Results

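The noncoding RNAs described here are abundant, structured or nuclear transcripts that libraries of total RNA capture beside mRNA: *Malat1*, *Neat1*, *Rn7s1*, *Rn7s2*, *Rn7sk*, *Rmrp*, *Rpph1*, *Gm42418*, *Gas5* and *Snhg1*. They were chosen by name with their measured abundance in these libraries known, so their levels are given as a description with no test of level. Of the 10 genes, 9 had a row among the 38887 Ensembl genes of the count table, and *Snhg1* was not analysed here. RNA came from bone marrow of *Apoe*-deficient mice on C57BL/6, from long-term hematopoietic stem cells (LT-HSC, sorted as CD150-positive and CD48-negative) and from HPC-1 (CD48-positive and CD150-negative), a more differentiated multipotent progenitor that the labels name ST-HSC, each from the lineage-negative fraction that carries c-kit and Sca-1 and with 5000 sorted cells a sample. All mice lacked *Apoe* and were fed a Western diet for 12 weeks from 8 weeks of age, and implanted pumps gave either PBS or the hypertensive peptide Ang II (angiotensin II) over the last 2 weeks. *Il27ra*, the gene of the interleukin-27 receptor subunit, was intact (WT), heterozygous (+/-) or homozygous deficient (-/-). Counts were available for 36 libraries in 12 groups. LT-HSC after PBS comprised 1 WT, 3 Il27ra +/- and 3 Il27ra -/- libraries, and LT-HSC after Ang II 2 WT, 4 Il27ra +/- and 4 Il27ra -/-. HPC-1 after PBS comprised 2 WT, 3 Il27ra +/- and 3 Il27ra -/- libraries, and HPC-1 after Ang II 3 WT, 4 Il27ra +/- and 4 Il27ra -/-.

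Libraries of total RNA made by random priming, as here, hold RNAs without a poly(A) tail, among them the RNA polymerase III transcripts that serve as scaffolds of ribonucleoproteins: 7SL of the signal recognition particle, 7SK, which holds the elongation factor P-TEFb inactive, and the RNAs of RNase P and RNase MRP. In these libraries cDNA of ribosomal RNA was depleted with probes, so shares of ribosomal RNA are those left after that step. *Malat1* and *Neat1* are long nuclear RNAs, the former concentrated in nuclear speckles and the latter the core of paraspeckles. In hematopoietic stem cells, which rarely divide and make little protein, the RNAs that serve secretion, tRNA maturation and ribosome assembly bear on how active the machinery of protein synthesis is.

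Library totals had a median of 3139364 counts (2560838 in LT-HSC and 3254832 in HPC-1), with 25 libraries under 4000000 counts and 11 over. Totals moved together with sex-linked transcripts. In 12 libraries (8 LT-HSC and 4 HPC-1) *Xist*, the RNA of the inactive X chromosome, was at 3527 to 4576 CPM (counts scaled to a common library total, normalised) and the Y-linked genes *Ddx3y*, *Eif2s3y*, *Kdm5d* and *Uty* held at most 1 count in sum. In the other 24 libraries (9 LT-HSC and 15 HPC-1) these Y-linked genes held 383 to 1071 counts and *Xist* was at 71.8 CPM or less. All 11 libraries over 4000000 counts were among the 12 *Xist* libraries, and all 8 WT libraries were among the 24 Y-linked libraries. Sex, depth and the share of WT libraries therefore cannot be told apart by comparing these classes over all libraries. Replicates carry p-values that measure the spread between samples. The labels name no animal, so whether LT-HSC and HPC-1 libraries share animals is not known here.

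The labelled cell types were checked against their markers. All 11 genes of an LT-HSC list had a row, and their summed level was 277 to 2353 CPM in LT-HSC (median 1832, *Hlf* the most abundant) and 148 to 362 CPM in HPC-1 (median 219). All 8 genes of a list for HPC-1 and multipotent progenitors had a row, with 107 to 2150 CPM in LT-HSC (median 299, *Cd34* the most abundant) and 1285 to 2908 CPM in HPC-1 (median 1953). The cell types thus separated except for the LT-HSC PBS Il27ra -/- replicate 2, which had the lowest LT-HSC sum (277 CPM) and the highest HPC-1 sum (2150 CPM) of the LT-HSC libraries. The LT-HSC Ang II Il27ra -/- replicate 2 had the highest granulocyte sum of all libraries, 8865 CPM against a median of 55.1 CPM in LT-HSC. Its most abundant granulocyte genes were *S100a9* (2178 CPM), *Ngp* (2110 CPM) and *Ltf* (1591 CPM), with *Mpo* at 1107 CPM, and in the LT-HSC PBS Il27ra -/- replicate 2 *Mpo* was at 3518 CPM and *S100a9* at 3.98 CPM. Both are Il27ra -/- libraries. The 8 genes of the stem and progenitor gate summed to 1799 to 2490 CPM in LT-HSC and 1931 to 2953 CPM in HPC-1, with *Kit* the most abundant. In the single LT-HSC PBS WT library *Il27ra* was at 17.1 CPM, inside the range of the LT-HSC Il27ra -/- libraries (6.93 to 19.3 CPM). The LT-HSC Ang II WT libraries were at 42.8 and 51.7 CPM and the Il27ra +/- libraries at 23.8 to 42.7 CPM, all above that range, so this library goes against its label and is called WT by its label only. In HPC-1 *Il27ra* was at 6.06 to 11.9 CPM in WT and 4.63 to 11.1 CPM in Il27ra -/-, and 4 of 5 WT libraries lay inside the Il27ra -/- range.

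By mean share of counts over the 36 libraries, *Gm42418*, *Rn7s2*, *Malat1* and *Rn7sk* ranked 1 to 4 of the 38887 genes, with 3.81%, 1.39%, 1.39% and 1.19%. *Rn7s1* ranked 6 (0.444%) and *Rpph1* 8 (0.419%), so that 6 of the 10 genes with the highest mean share were noncoding RNAs of this group. *Rmrp* ranked 59 (0.109%), *Gas5* 264 (0.0446%) and *Neat1* 365 (0.0373%). The mRNA with the highest mean share was *Eef1a1*, an elongation factor of translation, at rank 5 (0.6247%). These are the values that chose the genes, and nothing is read from the ranks.

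**Figure D1:**
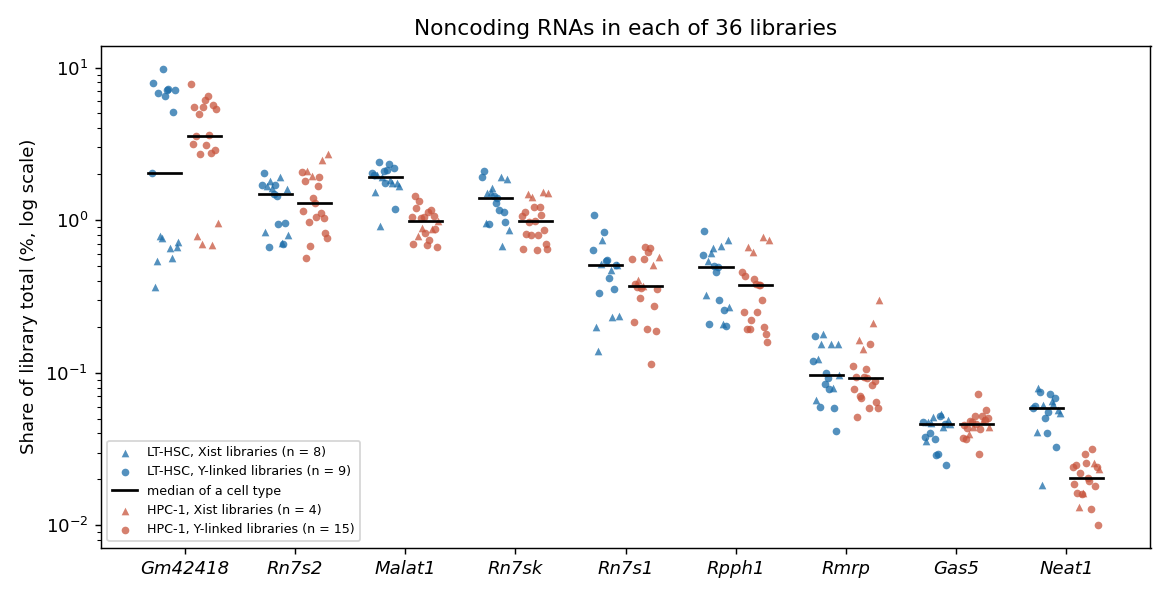
Share of the library total (percent, log scale) of each noncoding RNA in each of 36 libraries, with triangles for *Xist* libraries, circles for Y-linked libraries, colours for cell types and bars for the median of a cell type. *Gm42418* falls into separate clusters (0.363 to 0.952% and 2.04 to 9.82%), and *Neat1* and *Malat1* lie higher in LT-HSC than in HPC-1 in most libraries.

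Summed over the 9 genes, the share was lowest at 4.33%, had a median of 7.97% and was highest at 16.3%. In LT-HSC it was 4.33% at the lowest, 9.15% at the median and 16.3% at the highest, and in HPC-1 5.78%, 7.86% and 13.1%. The ranges of the cell types overlapped, and without *Gm42418* the sum was 2.70 to 8.30% (median 4.97%). The median of the summed share was 6.80% in the 15 PBS libraries and 8.73% in the 21 Ang II libraries, with ranges of 4.36 to 16.3% and 4.33 to 16.3%. By genotype it was 10.4% in WT (n = 8), 7.44% in Il27ra +/- (n = 14) and 7.75% in Il27ra -/- (n = 14), and the ranges overlapped. All WT libraries are Y-linked libraries, and each of these held a higher share of *Gm42418* than any *Xist* library. The mix of *Xist* and Y-linked libraries also differs between PBS and Ang II. The part of the classes in the medians by agent and by genotype was not tested. By library total the median was 9.96% in the 25 libraries under 4000000 counts and 6.61% in the 11 over. Each single share carries a 95% Wilson interval, whose half-width was at most 11.4% of the share for *Neat1*, 8.19% for *Gas5* and 6.30% for *Rmrp*, and under that of *Rn7s1* (3.85%) for the rest. Reads amplified by PCR are not independent molecules, so these intervals cover counting error only.

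Levels of different genes were compared per kilobase of exon. Over the 36 libraries the median was 49057 CPM per kilobase for *Rn7s2*, 35529 for *Rn7sk*, 18671 for *Gm42418*, 13840 for *Rn7s1*, 13298 for *Rpph1* and 3458 for *Rmrp*. *Malat1*, with 6983 exon bases, came after these at 1759 CPM per kilobase, *Gas5* at 120 and *Neat1*, with 20771 exon bases, at 14.1. In LT-HSC alone the median of *Gm42418* was 10484, below *Rn7s1* (15704) and *Rpph1* (15483). Ranges of neighbours in the order over all libraries overlapped from *Rn7s2* down to *Malat1*, whereas *Malat1* (992.1 to 3233), *Gas5* (65.8 to 194) and *Neat1* (5.23 to 34.9) did not overlap each other. By their medians, the short polymerase III transcripts and *Gm42418* were thus measured at higher density per base than the long nuclear RNAs.

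*Malat1* (ENSMUSG00000092341, mm10 chromosome 19, 5795690 to 5802672, minus strand), the RNA of nuclear speckles, and *Neat1* (ENSMUSG00000092274, chromosome 19, 5824708 to 5845478, minus strand), the scaffold of paraspeckles, are neighbours with 22035 bases between them. In LT-HSC the share of *Malat1* was 0.920% at the lowest, 1.92% at the median and 2.39% at the highest (n = 17), and in HPC-1 0.671%, 0.981% and 1.44% (n = 19). *Malat1* was higher in LT-HSC, with 13 of 17 LT-HSC libraries above every HPC-1 library by normalised CPM and the lowest LT-HSC library being PBS Il27ra -/- replicate 2. Without the 2 LT-HSC libraries that stand apart, the LT-HSC range was 1.53 to 2.39%. The share of *Neat1* in LT-HSC was 0.0184% at the lowest, 0.0587% at the median and 0.0796% at the highest, and in HPC-1 0.0101%, 0.0203% and 0.0316%. *Neat1* was thus higher in LT-HSC in 16 of 17 libraries than in every HPC-1 library, and the exception was again PBS Il27ra -/- replicate 2.

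In normalised counts, *Malat1* in LT-HSC after PBS was at 19136 CPM in WT, at 20894, 12388 and 17902 CPM in Il27ra +/- and at 22237, 9246 and 18143 CPM in Il27ra -/-. After Ang II it was at 22576 and 18089 CPM in WT LT-HSC, at 21995, 22323, 17481 and 16025 CPM in Il27ra +/- and at 20260, 11858, 16105 and 15162 CPM in Il27ra -/-. Within LT-HSC the groups overlapped, and the lowest values of the Il27ra -/- groups were those of the libraries that stand apart, at 9246 and 11858 CPM. In HPC-1 after PBS, *Malat1* was at 12177 and 7125 CPM in WT, at 15955, 12058 and 7842 CPM in Il27ra +/- and at 13524, 10369 and 8779 CPM in Il27ra -/-. After Ang II it was at 11121, 8899 and 6928 CPM in WT HPC-1, at 13460, 7972, 11513 and 8912 CPM in Il27ra +/- and at 10780, 8673, 7242 and 10052 CPM in Il27ra -/-. The HPC-1 groups overlapped as well, and no HPC-1 library reached the median of LT-HSC (18089 CPM).

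*Neat1* in LT-HSC after PBS was at 553 CPM in WT, at 648, 332 and 725 CPM in Il27ra +/- and at 693, 185 and 581 CPM in Il27ra -/-. After Ang II it was at 543 and 414 CPM in WT LT-HSC, at 567, 698, 614 and 566 CPM in Il27ra +/- and at 633, 325, 528 and 496 CPM in Il27ra -/-. After PBS the genotypes overlapped, with the lowest value in PBS Il27ra -/- replicate 2. After Ang II the Il27ra -/- libraries overlapped both other genotypes. All Il27ra +/- libraries (566 to 698 CPM) lay above both WT libraries (414 and 543 CPM) there. That difference was not called by edgeR (log2 difference 0.36, 95% interval −0.57 to 1.29). The share of all genes that separate these groups was not counted, so nothing is read from the separation. In HPC-1 after PBS, *Neat1* was at 277 and 189.6 CPM in WT, at 276, 163 and 131 CPM in Il27ra +/- and at 224, 161 and 160.2 CPM in Il27ra -/-. After Ang II it was at 310.1, 276 and 204 CPM in WT HPC-1, at 232, 136, 312 and 259.8 CPM in Il27ra +/- and at 185, 239, 109 and 238 CPM in Il27ra -/-. All 19 HPC-1 libraries lay below 16 of the 17 LT-HSC libraries.

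**Figure D2:**
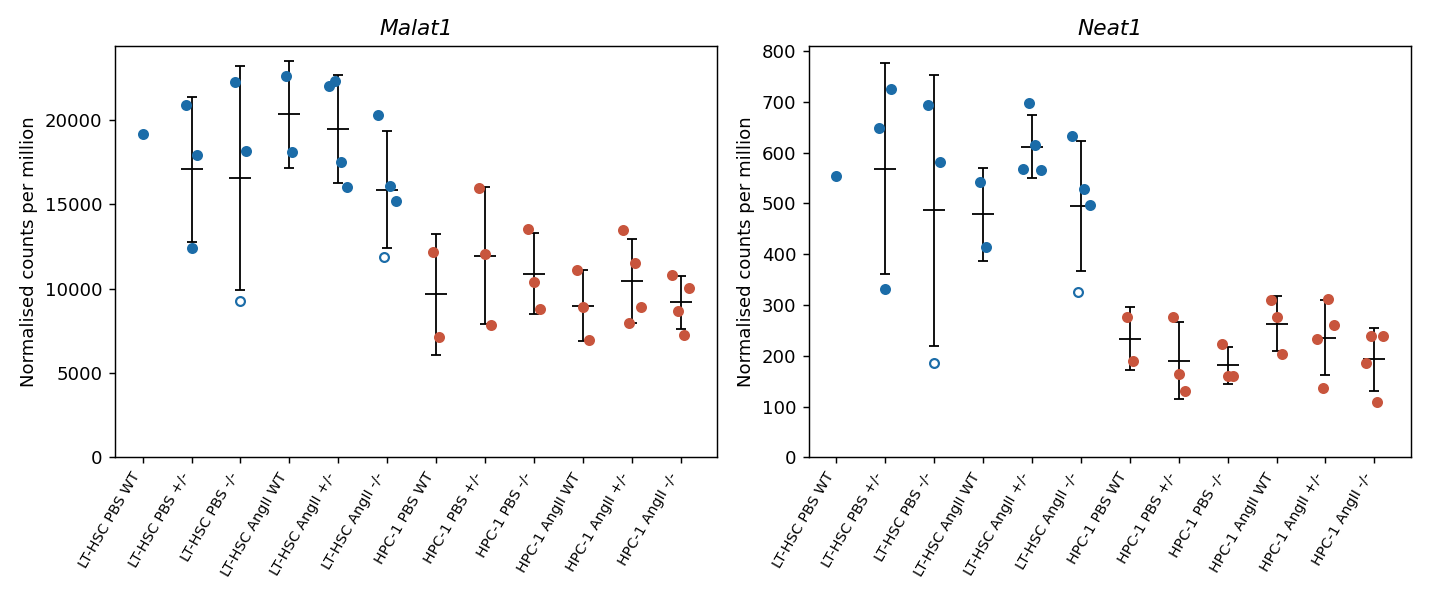
Normalised CPM of *Malat1* and *Neat1* in every library by group, with the mean and SD of groups of more than 1 library and open circles for the LT-HSC libraries that stand apart. *Malat1* spans 9246 to 22576 CPM in LT-HSC and 6928 to 15955 CPM in HPC-1, and *Neat1* 185 to 725 and 109 to 312 CPM.

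The fit of LT-HSC against HPC-1 asks how stem cells differ from their progeny, as the mean over the 5 combinations of agent and genotype with at least 2 libraries in both cell types. *Malat1* was 1.74-fold higher in LT-HSC (log2 difference 0.80, SE 0.130, 95% interval 0.53 to 1.06, edgeR adjusted p = 1.72e-05) and higher in all 5 of these combinations. *Neat1* was 2.50-fold higher (log2 difference 1.32, SE 0.172, 95% interval 0.97 to 1.67, adjusted p = 8.64e-07), also in all 5. With *Gas5*, described below, 3 of the 9 members tested were called, where 36.3% of the 18013 genes tested were called, so the count is close to that of the whole table and is no result about the group. With no filter beyond a total count of 1 there were 6, with *Rn7s1*, *Rn7sk* and *Rpph1* added, where 6164 of 30682 genes were called. The log2 differences of the added genes were as with the filter, so these calls rest on a smaller estimate of the spread. Without the 2 LT-HSC libraries that stand apart the log2 differences were 0.88 for *Malat1* and 1.43 for *Neat1*, and among Y-linked libraries alone they were 0.90 and 1.43. By normalised CPM of single libraries, 0 of the 9 members and 17 of the 18013 genes (0.0944%) separated the cell types with no overlap. Without the 2 libraries, *Neat1* did, as did 3.84% of the genes. In bulk samples, fewer cells of a type and less RNA per cell cannot be told apart.

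Markers of other cells differed between the cell types too. The granulocyte list (10 of 10 genes with a row) summed to a median of 55.1 CPM in LT-HSC and 5515 CPM in HPC-1, with *Mpo* at 4.71 CPM in LT-HSC and 4793 CPM in HPC-1 at the median. By mean, 4 of the 10 genes (*Mpo*, *Elane*, *Prtn3* and *Ctsg*) were higher in HPC-1 and 6 (*S100a8*, *S100a9*, *Ltf*, *Ngp*, *Camp* and *Lcn2*) in LT-HSC. Those 6 means were carried by Ang II Il27ra -/- replicate 2 (*S100a9* 2178 CPM) and PBS Il27ra -/- replicate 3 (*S100a9* 323 CPM), and by median *S100a8*, *Ltf* and *Lcn2* were lower in LT-HSC. The megakaryocyte list (7 of 7 genes) summed to a median of 744 CPM in LT-HSC and 121 CPM in HPC-1 (*Itga2b* the most abundant), and the B lymphoid list (9 of 9) to 15.9 and 145 CPM (*Ighm* the most abundant). The erythroid list (10 of 10) reached 3242 CPM in LT-HSC PBS Il27ra -/- replicate 3, against a median of 89.7 CPM in LT-HSC and 115 CPM in HPC-1 (*Hba-a2* the most abundant). The intestinal epithelium list (15 of 15) summed to a median of 538 CPM in LT-HSC and 509 CPM in HPC-1, with *Muc13* the most abundant and *Fabp1* at 0. The part of these cells in the differences of *Malat1*, *Neat1* and *Gas5* was not tested.

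Genes whose proteins share a nuclear body with these RNAs were read from the same fit, as RNA counts, in which 3220 of the 18013 genes were higher and 3323 lower in LT-HSC (36.3% called). No list was tested against all genes. Of 14 genes of nuclear speckle proteins tested, 0 were higher and 11 lower in LT-HSC by edgeR, with a median log2 difference of −0.31 against 0.03 over all 18013 genes. Among the lower were the splicing factors *Srsf3* (log2 difference −0.63, SE 0.0938, adjusted p = 7.65e-07) and *Srsf10* (−0.51, SE 0.0914, adjusted p = 2.14e-05), and the U2 component *Sf3b1* (−0.36, SE 0.0669, adjusted p = 3.47e-05). Of 15 genes of paraspeckle proteins, 2 were higher and 10 lower, with a median of −0.25. *Nono* was at a mean of 469 CPM in LT-HSC and 657 CPM in HPC-1 (log2 difference −0.46, SE 0.0721, adjusted p = 2.05e-06), *Dazap1* had −0.50 (adjusted p = 1.51e-05) and *Hnrnpk* −0.38 (adjusted p = 9.86e-05). *Zc3h6* was among the 2 that were higher, with 43.1 against 20.8 CPM (log2 difference 1.00, SE 0.168, adjusted p = 7.04e-06).

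Counts of *Malat1* were 24.7 to 49.9 times those of *Neat1* in LT-HSC (median 32.1) and 32.3 to 73.9 times in HPC-1 (median 54.8). Relations between samples were computed within cell type and *Xist* or Y-linked class, in 3 sets of at least 6 libraries, since the 4 HPC-1 *Xist* libraries are too few. In the 8 LT-HSC *Xist* libraries, log2 CPM of *Malat1* and *Neat1* had Pearson r = 0.986 (exact two-sided permutation p = 0.000347, 0.278 after adjustment over all genes) and rho = 0.905 (exact permutation p = 0.00456), with r = 0.795 without the 2 libraries farthest from the median of *Malat1*. In that set *Neat1* was the gene with the highest r to *Malat1* among 17950. The set holds PBS Il27ra -/- replicate 2, the LT-HSC library with HPC-1 markers. Its *Malat1* (9246 CPM) and *Neat1* (185 CPM) were the lowest of the set. The part of this library in the r and in the rank was not tested. In the 9 LT-HSC Y-linked libraries r was 0.881 (exact permutation p = 0.00471, adjusted 0.509) and rho 0.6 (p = 0.0968), but r fell to 0.257 without 2 libraries, so that the relation rests on them. These 9 include Ang II Il27ra -/- replicate 2, which stands apart and was the lowest of them in both genes (11858 and 325 CPM). In the 15 HPC-1 Y-linked libraries r was 0.503 (permutation p = 0.0569, adjusted 0.456), rho 0.471 (permutation p = 0.0783) and r without 2 libraries 0.560. None of the 3 relations passed after adjustment over all genes. In the *Xist* set the smallest p the permutations can give is 2.48e-05, and 9 genes would have to reach it for any to pass. In the HPC-1 Y-linked set the smallest p is 1e-05, and 4 genes would have to reach it.

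Over all 36 libraries, the genes with the highest r of log2 CPM to *Malat1* were *Utrn* (utrophin, r = 0.942), the stem cell cytokine gene *Angpt1* (0.941) and the zinc finger factor gene *Zbtb20* (0.932). For *Neat1* they were the immediate early gene *Egr1* (r = 0.923), the homeobox gene *Meis1* (0.922) and the sphingomyelin synthase gene *Sgms1* (0.921). These values are descriptions over libraries of both cell types, which share the difference between them. Within the 15 HPC-1 Y-linked libraries, r to *Malat1* was 0.897 for *Utrn*, 0.825 for *Angpt1* and 0.793 for *Zbtb20*, and r to *Neat1* was 0.518 for *Egr1*, 0.495 for *Meis1* and 0.551 for *Sgms1*.

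*Rn7s1* (ENSMUSG00000099021, chromosome 12, 69159295 to 69159594, plus strand) and *Rn7s2* (ENSMUSG00000099250, chromosome 12, 69361182 to 69361481, minus strand), which encode 7SL, lie 201587 bases apart. Over their 300 bases the mm10 sequences differ at 0 positions (100% identity), so reads cannot be told apart between them. Of the 7SL counts of a library, 7.63% at the lowest, 24.2% at the median and 39.4% at the highest were assigned to *Rn7s1*. The lowest was LT-HSC PBS Il27ra +/- replicate 3 and the highest HPC-1 PBS Il27ra +/- replicate 2, although the sequences are identical. Values of either row alone rest on that split, and the level of 7SL is read from the sum.

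The summed share of 7SL was 0.941% at the lowest, 1.98% at the median and 3.12% at the highest in LT-HSC, and 0.929%, 1.95% and 3.31% in HPC-1. The cell types overlapped over nearly the whole range. Tested as 1 feature, 7SL had a log2 difference of −0.06 between LT-HSC and HPC-1 (SE 0.237, 95% interval −0.55 to 0.43, adjusted p = 0.993), which bounds the difference the data could hide. As separate rows, *Rn7s1* had 0.22 (95% interval −0.40 to 0.84) and *Rn7s2* −0.15 (−0.66 to 0.36). Within HPC-1, the 4 *Xist* libraries held 2.30 to 3.31% of counts on 7SL (median 2.74%) and the 15 Y-linked libraries 0.929 to 2.62% (median 1.31%), with overlap. Among 9 genes of proteins of the signal recognition particle and its receptor with a row, of 11 listed, 0 were higher and 4 lower in LT-HSC (median log2 difference −0.28), a share called near the 36.3% of all genes. These were *Srp68* (−0.76, SE 0.0972, adjusted p = 4.11e-08), which binds 7SL, and *Srp72* (−0.42, SE 0.0743, adjusted p = 1.44e-05), *Srp19* (−0.37, SE 0.119, adjusted p = 0.0134) and *Srp14* (−0.24, SE 0.0946, adjusted p = 0.0438).

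*Rn7sk* (ENSMUSG00000065037, chromosome 9, 78175303 to 78175633, minus strand) encodes 7SK, the RNA that keeps P-TEFb from releasing paused RNA polymerase II. Its share was 0.676% at the lowest, 1.39% at the median and 2.09% at the highest in LT-HSC, and 0.634%, 0.988% and 1.53% in HPC-1. The median was higher in LT-HSC but the ranges overlapped. The log2 difference was 0.28 (SE 0.183, 95% interval −0.09 to 0.66, adjusted p = 0.256). With no filter beyond a total count of 1 it was also 0.28 (adjusted p = 0.000216), so that call rests on a smaller estimate of the spread. Among Y-linked libraries alone it was 0.45 (SE 0.142, adjusted p = 0.0260), a choice of libraries made after seeing the data. Of 7 genes of the 7SK particle and P-TEFb, 0 were higher and 4 lower in LT-HSC (median −0.24), where 36.3% of all genes were called and 3323 of 18013 were lower. They were *Hexim2*, a protein that inhibits P-TEFb through 7SK, at 0.840 against 2.67 CPM (log2 difference −2.34, SE 0.611, adjusted p = 0.00212), the cyclin gene *Ccnt1* (−0.27, SE 0.0760, adjusted p = 0.00478), the kinase gene *Cdk9* (−0.24, SE 0.0951, adjusted p = 0.0415) and the 7SK-binding *Larp7* (−0.36, SE 0.139, adjusted p = 0.0423). *Hexim2* was near the floor. The more abundant *Hexim1* was not called and went the other way, at 42.7 against 36.7 CPM (log2 difference 0.17, SE 0.126, adjusted p = 0.323). *Ccnt2* and *Mepce* (both −0.11) were not called either. Counts of *Rn7sk* were 0.578 to 1.07 times those of 7SL in LT-HSC (median 0.801) and 0.346 to 0.869 times in HPC-1 (median 0.577).

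*Rmrp* (ENSMUSG00000088088, chromosome 4, 43492788 to 43493058, minus strand) is the RNA of RNase MRP, which takes part in ribosomal RNA processing. Its share was 0.0417% at the lowest, 0.0971% at the median and 0.181% at the highest in LT-HSC, and 0.0512%, 0.0923% and 0.299% in HPC-1. The cell types overlapped, with a log2 difference of −0.13 (SE 0.268, 95% interval −0.68 to 0.42, adjusted p = 0.854). On the opposite strand *Ccdc107* covers 159 of its 271 bases, with 2147 counts over all 36 libraries. *Rpph1* (ENSMUSG00000092837, chromosome 14, 50807449 to 50807767, minus strand) is the RNA of RNase P, which trims the leader of tRNA precursors. Its share was 0.202% at the lowest, 0.4933% at the median and 0.847% at the highest in LT-HSC, and 0.159%, 0.375% and 0.772% in HPC-1. Here too the cell types overlapped, with a log2 difference of 0.21 (SE 0.290, 95% interval −0.39 to 0.81, adjusted p = 0.684). The same strand of *Ccnb1ip1* overlaps it by 284 bases, with 10 counts over all libraries.

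Counts of *Rpph1* were 2.65 to 5.90 times those of *Rmrp* in LT-HSC (median 4.40) and 2.26 to 6.40 times in HPC-1 (median 3.57). Both RNAs share proteins in the cell, and of 10 tested among 11 listed genes of RNase P and RNase MRP proteins, 0 were higher and 5 lower in LT-HSC (median −0.37), where 36.3% of all genes were called. Those with the smallest adjusted p-values were *Pop1* (−0.55, SE 0.135, adjusted p = 0.00113), *Pop7* (−0.85, SE 0.228, adjusted p = 0.00271), *Pop4* (−0.51, SE 0.160, adjusted p = 0.00944) and *Rpp40* (−0.85, SE 0.273, adjusted p = 0.0121).

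In HPC-1, *Rn7sk* and *Rpph1* separated the *Xist* from the Y-linked libraries. *Rn7sk* held 1.43 to 1.53% of counts in the 4 *Xist* libraries and 0.634 to 1.23% in the 15 Y-linked libraries. *Rpph1* held 0.616 to 0.772% and 0.159 to 0.456%. *Rmrp* (0.143 to 0.299% and 0.0512 to 0.155%) and 7SL overlapped between them. Among the 9 members, *Rn7sk*, *Rpph1* and *Gm42418* did not overlap between these HPC-1 classes by normalised CPM, against 1.93% of the 18013 genes. In LT-HSC, *Gm42418* was the 1 member that did not overlap between its 8 *Xist* and 9 Y-linked libraries, against 0.55% of the genes. The HPC-1 *Xist* libraries are also the 4 HPC-1 libraries over 4000000 counts, so sex and depth cannot be told apart there.

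The polymerase III machinery, which transcribes 7SL, 7SK and both RNase RNAs, was represented by 31 genes, of which 30 were tested. In LT-HSC 0 were higher and 12 lower (median log2 difference −0.18), a share called near the 36.3% of all genes. Among the 12 were the 5S factor *Gtf3a* (−0.58, SE 0.0972, adjusted p = 5.69e-06), *Polr1c*, a subunit shared with polymerase I (−0.46, SE 0.116, adjusted p = 0.00153), the La protein gene *Ssb*, which binds the ends of new transcripts (−0.66, SE 0.160, adjusted p = 0.00162), and *Gtf3c4* (−0.32, SE 0.0875, adjusted p = 0.00313). Between Ang II-infused Il27ra -/- and WT LT-HSC, where 1.69% of the 16365 genes were called and 92 were lower, 3 of the 30 were lower in Il27ra -/-: *Polr3d* (log2 difference −1.41, SE 0.266, adjusted p = 0.0113), *Gtf3c6* (−1.20, SE 0.287, adjusted p = 0.0404) and *Bdp1* (−0.86, SE 0.208, adjusted p = 0.0421). In the same comparison 2 of 14 genes of nuclear speckle proteins were lower, *Srsf11* (−0.86, SE 0.1796, adjusted p = 0.0207) and *Pnn* (−0.68, SE 0.168, adjusted p = 0.0452). Of the 4 Il27ra -/- libraries, Ang II replicate 2 stands apart. Without it *Polr3d* (−1.48, adjusted p = 0.0132), *Gtf3c6* (−1.25, adjusted p = 0.0384) and *Srsf11* (−0.86, adjusted p = 0.0272) were called, but *Bdp1* (−0.84, adjusted p = 0.0504) and *Pnn* (−0.65, adjusted p = 0.0612) were not. Without both LT-HSC libraries that stand apart all 5 were called, where 713 of 16205 genes were. Both WT libraries there are Y-linked libraries under 4000000 counts.

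*Gm42418* (ENSMUSG00000098178, chromosome 17, 39846958 to 39848788, plus strand) is annotated as a noncoding gene of 1831 bases, of which 1245 lie inside the ribosomal RNA gene *Rn18s-rs5* of RefSeq (39846354 to 39848202). It ends beyond it, and the bases GGATCATTA, which end the 18S ribosomal RNA, close at base 1244 of *Gm42418* (position 39848201). The window around them is given from mm10 because it ties the gene with the highest mean share to ribosomal RNA, with those bases in capitals, written 5′ to 3′ from the transcribed strand.
Gm42418 RNA around the landmark: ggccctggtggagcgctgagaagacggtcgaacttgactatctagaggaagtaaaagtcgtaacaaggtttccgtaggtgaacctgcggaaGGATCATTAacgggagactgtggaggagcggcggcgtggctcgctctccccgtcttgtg
In the 12 *Xist* libraries *Gm42418* held 0.363% of counts at the lowest, 0.697% at the median and 0.952% at the highest, and in the 24 Y-linked libraries 2.04%, 5.50% and 9.82%. The classes did not overlap, as 0.155% of the 18013 genes did not. The separation held within LT-HSC (0.363 to 0.793% and 2.04 to 9.82%) and within HPC-1 (0.690 to 0.952% and 2.70 to 7.75%).

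The LT-HSC PBS Il27ra +/- replicate 2, with 2560838 counts, is the only *Xist* library under 4000000 and held the lowest share of *Gm42418* of all 36, 0.363%. The genes most like *Gm42418* over the 36 libraries were the Y-linked *Kdm5d* (r = 0.931), *Uty* (0.925) and *Ddx3y* (0.916). Within the 15 HPC-1 Y-linked libraries r to *Kdm5d* was 0.284 and to *Ddx3y* −0.333. Between LT-HSC and HPC-1 the log2 difference was 0.06 (SE 0.549, 95% interval −1.08 to 1.19, adjusted p = 1). It ran from −0.54 to 0.28 with each library left out and from −0.90 to 0.63 over 13 alternatives, so the data do not fix its sign. The labels give no sex and no batch, and whether the classes were prepared together was not tested. The part of the depletion of ribosomal cDNA in the share of *Gm42418* was not tested either.

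**Figure D3:**
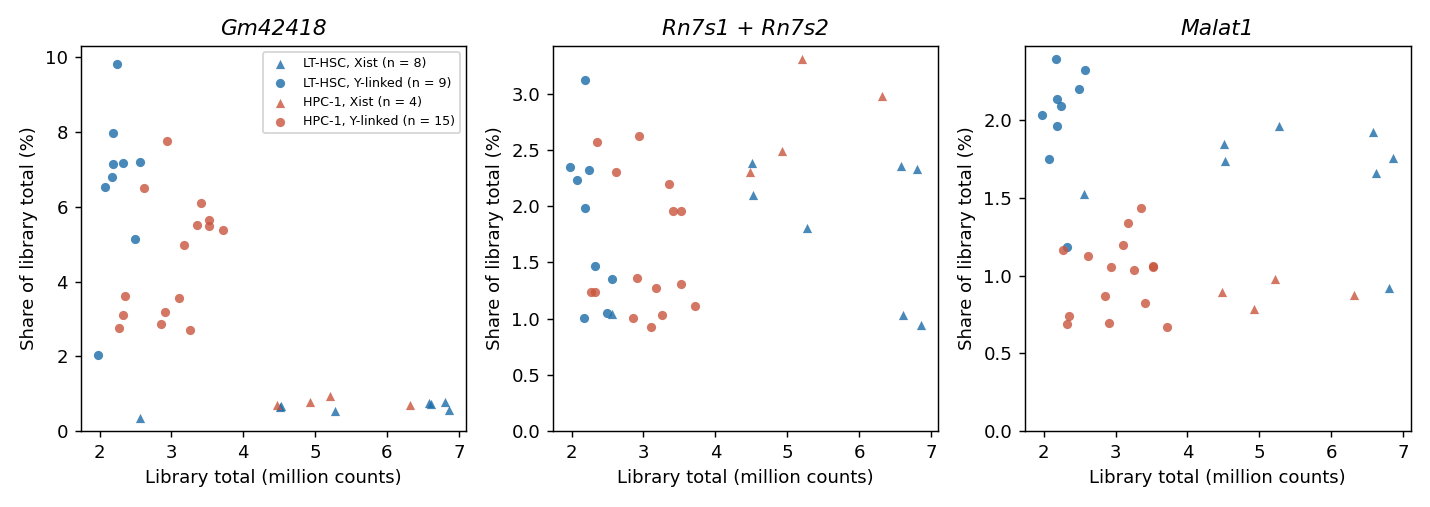
Share of the library total (percent) of *Gm42418*, of *Rn7s1* and *Rn7s2* summed and of *Malat1* against the library total (in counts), with triangles for *Xist* and circles for Y-linked libraries. *Gm42418* is at 0.952% or less in all 12 *Xist* libraries and at 2.04% or more in all 24 others.

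Within the classes, the share of each member was related to the library total in the 3 sets, 27 relations in all. By permutation tests adjusted over all genes, 0 of 9 members were called in the LT-HSC Y-linked set (0% of 17522 genes called), 0 in the LT-HSC *Xist* set (0% of 17951) and 0 in the HPC-1 Y-linked set (0% of 17694). The smallest p these permutations can give is 2.76e-06, 2.48e-05 and 1e-05 in these sets. For any gene to pass, 1, 9 and 4 genes would have to reach it, so nothing is read from a count of 0. At an unadjusted p under 0.05 there was 1 of the 27, *Gm42418* in the 8 LT-HSC *Xist* libraries (r = 0.736, exact two-sided permutation p = 0.0317, adjusted 0.226), with rho = 0.5 (exact permutation p = 0.216) and r = 0.377 without the 2 libraries farthest from the median total. In the 15 HPC-1 Y-linked libraries *Gm42418* had r = 0.428 (permutation p = 0.112, adjusted 0.730), rho = 0.418 (permutation p = 0.123) and r = 0.225 without 2 libraries. In the 9 LT-HSC Y-linked libraries its r was 0.308 (exact permutation p = 0.425, adjusted 0.957), rho 0.483 (exact permutation p = 0.194) and r without 2 libraries 0.789. No other tool was run on these relations. Over both classes of a cell type, the relation the design names, no r is given because the classes form clusters. There the share of *Gm42418* was lower in deeper libraries in both cell types, opposite in sign to the relations within the classes. The shares of *Rn7s2*, *Rn7sk*, *Rmrp* and *Rpph1* in HPC-1 and of *Gas5* in LT-HSC were higher in deeper libraries. Genes are named here where the unadjusted permutation p was under 0.05. Within the 15 HPC-1 Y-linked libraries r was −0.254 for *Rn7s2* and −0.0170 for *Rn7sk* (permutation p = 0.358 and 0.951). For *Rmrp* and *Rpph1* it was −0.278 and −0.135 (permutation p = 0.321 and 0.629). Their rho was −0.218, 0.0643, −0.0107 and −0.104 in this order, so the data do not fix a sign within that class. For *Gas5* r was 0.347 in the LT-HSC Y-linked and 0.412 in the LT-HSC *Xist* libraries, with rho 0.167 and −0.238.

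*Gas5* (ENSMUSG00000053332, chromosome 1, 161034422 to 161038539, plus strand) is a spliced noncoding RNA that hosts small nucleolar RNAs in its introns and starts with a run of pyrimidines like the mRNAs of ribosomal proteins. Its share was 0.0247% at the lowest, 0.0460% at the median and 0.0541% at the highest in LT-HSC, and 0.0294%, 0.0460% and 0.0725% in HPC-1. By normalised CPM it was lower in LT-HSC, at 247 to 512 CPM (median 419) against 349.8 to 729 CPM (median 476), and 14 of 17 LT-HSC libraries lay below the HPC-1 median. The ranges overlapped, with the lowest value in LT-HSC Ang II Il27ra -/- replicate 2 and the highest in HPC-1 Ang II WT replicate 3. The log2 difference was −0.30 (SE 0.0878, 95% interval −0.48 to −0.12, edgeR adjusted p = 0.00630), 0.814-fold, and lower in all 5 combinations of agent and genotype. The call ended without HPC-1 PBS Il27ra +/- replicate 1 (log2 difference −0.22, adjusted p = 0.0641) and with scaling to library totals only (−0.20, adjusted p = 0.0960), and over 13 alternatives the adjusted p ranged from 0.00271 to 0.0960. The medians of the raw share were both 0.0460%.

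In LT-HSC after PBS, *Gas5* was at 450 CPM in WT, at 404, 288 and 434 CPM in Il27ra +/- and at 372, 473 and 487 CPM in Il27ra -/-. After Ang II it was at 401 and 298 CPM in WT LT-HSC, at 303, 500, 512 and 401 CPM in Il27ra +/- and at 425, 247, 452 and 419 CPM in Il27ra -/-. In LT-HSC the groups of more than 1 library overlapped. The single PBS WT library (450 CPM) lay above all PBS Il27ra +/- libraries and both Ang II WT libraries. In HPC-1 after PBS it was at 431 and 466 CPM in WT, at 411, 437 and 399 CPM in Il27ra +/- and at 490.2, 476 and 435 CPM in Il27ra -/-. After Ang II it was at 550, 498 and 729 CPM in WT HPC-1, at 349.8, 456, 513 and 501 CPM in Il27ra +/- and at 498, 568, 546 and 454 CPM in Il27ra -/-. The Ang II libraries of HPC-1 held both the lowest and the highest value, so over all genotypes the treatments overlapped. Within WT HPC-1, all Ang II libraries lay above both PBS libraries. How many of all genes separate such small groups was not counted, so nothing is read from it. The genes most like *Gas5* over the 36 libraries were *BC005537* (r = 0.727), the ribosomal protein gene *Rpl9* (0.718) and *Npepl1* (0.7102).

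The RefSeq promoter table of mm10, which spans 300 bases around each gene start, held 4 sequences for 3 of the 10 genes, *Malat1*, *Gas5* (2 starts) and *Snhg1*. Those of *Malat1* (chr19:5802623-5802922, minus strand) and of the second *Gas5* start (chr1:161034916-161035215, plus strand) are shown because both genes were called between the cell types, in opposite directions, and these promoters hold TGACG, which the other *Gas5* promoter and that of *Snhg1* do not, with TGACG or its reverse complement CGTCA in capitals. In *Gas5* they overlap to form TGACGTCA.
Malat1 promoter: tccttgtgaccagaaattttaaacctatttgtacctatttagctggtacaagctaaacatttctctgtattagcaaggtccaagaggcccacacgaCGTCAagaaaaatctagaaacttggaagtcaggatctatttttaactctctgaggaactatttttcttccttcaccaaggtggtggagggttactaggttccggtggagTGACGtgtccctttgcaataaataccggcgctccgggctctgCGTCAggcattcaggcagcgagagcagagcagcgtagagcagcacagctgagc
Gas5 promoter: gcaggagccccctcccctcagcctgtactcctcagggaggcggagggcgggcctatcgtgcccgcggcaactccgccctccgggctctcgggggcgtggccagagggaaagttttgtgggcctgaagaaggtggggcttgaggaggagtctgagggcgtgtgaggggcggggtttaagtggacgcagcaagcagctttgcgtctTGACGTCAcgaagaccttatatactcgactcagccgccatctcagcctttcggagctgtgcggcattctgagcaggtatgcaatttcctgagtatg
TGACG on either strand was in 20.8% of the 32851 promoters of the table, and TGACGTCA, in the *Gas5* promoter alone of the 4, in 1.79%. GGGCGG was in both *Gas5* promoters and that of *Snhg1* (35.7% of all promoters), TATAAA in that of *Snhg1* (13.6%) and CCAAT in none of the 4 (37.4%), each searched on both strands. A match is a description, not a site or a cause.

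Ang II against PBS asks how the infusion acts on each cell type. In LT-HSC, over Il27ra +/- and -/-, edgeR called 0 of the 9 members and 0 of 16365 genes (0%), with 0 members and 463 genes at an unadjusted p under 0.05. DESeq2 and limma-voom also called 0 members there, and 1 and 0 genes. The log2 differences of the members ran from −0.46 for *Rpph1* (95% interval −1.39 to 0.46) to 0.33 for *Gm42418* (−1.93 to 2.59), with 0.05 for *Malat1* (−0.34 to 0.44). With each library left out *Gm42418* ran from −0.04 to 1.81 and *Malat1* from −0.09 to 0.20, so the data do not fix the sign of either. In HPC-1, over all 3 genotypes, edgeR called 0 of 9 members and 0 of 13199 genes (0%), with 1 member and 424 genes at an unadjusted p under 0.05. DESeq2 and limma-voom called 0 members and 3 and 0 genes. The member was *Gas5* (log2 difference 0.23, SE 0.0998, 95% interval 0.02 to 0.43). *Malat1* had −0.18 (−0.49 to 0.13), an interval below its log2 difference between the cell types. The test of the difference between the cell types in the Ang II effect called 0 of 9 members and 0 of 18013 genes (0%) by edgeR, with 0 members and 511 genes at an unadjusted p under 0.05, and 0 of each by DESeq2 and limma-voom.

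Il27ra -/- against +/- asks what the loss of the remaining allele does. In LT-HSC, edgeR called 0 of 9 members and 1 of 16365 genes (0.00611%), with 0 members at an unadjusted p under 0.05 and 0 members by DESeq2 or limma-voom. The log2 differences ran from −0.26 for *Neat1* (95% interval −0.83 to 0.31) to 0.05 for *Gas5* (−0.27 to 0.36). Without both LT-HSC libraries that stand apart, PBS and Ang II Il27ra -/- replicate 2, *Neat1* had 0.01 and *Malat1* 0.03 in place of −0.17, so their values rest on these libraries. In HPC-1, edgeR called 0 of 9 members and 0 of 13199 genes (0%), with 0 members and 330 genes at an unadjusted p under 0.05, and DESeq2 and limma-voom called 0 of each. The values ran from −0.47 for *Rpph1* (95% interval −1.42 to 0.47) to 0.18 for *Gas5* (−0.06 to 0.41). For the difference of this effect between the cell types, edgeR called 0 of 9 members and 0 of 18013 genes (0%), with 0 members and 802 genes at an unadjusted p under 0.05. DESeq2 and limma-voom called 0 members, and 8 and 0 genes.

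Against WT, which keeps the receptor, Ang II-infused LT-HSC gave 0 of 9 members called by edgeR in Il27ra -/-, where 1.69% of 16365 genes were called, with 0 members at an unadjusted p under 0.05 and 0 by DESeq2 and limma-voom. With no filter beyond a total count of 1, 3 members and 833 of 29655 genes were called. The largest value was that of *Gm42418*, −1.37 (SE 1.58, 95% interval −4.84 to 2.10), in a comparison where both WT libraries are Y-linked libraries and 2 of the 4 Il27ra -/- libraries are *Xist* libraries. Without Ang II Il27ra -/- replicate 2, which stands apart, it was −2.10. For Il27ra +/- against WT after Ang II, edgeR called 0 of 9 members against 0.831% of genes, with 0 at an unadjusted p under 0.05 and 0 by DESeq2 and limma-voom. In HPC-1, Il27ra -/- against WT gave 0 of 9 members by edgeR against 0.167% of 13199 genes, with 0 members at an unadjusted p under 0.05 and 0 by DESeq2 and limma-voom. There *Neat1* had a log2 difference of −0.42 (SE 0.233, 95% interval −0.90 to 0.07, adjusted p = 0.639). Il27ra +/- against WT in HPC-1 gave 0 of 9 members and 0 of 13199 genes (0%) by edgeR, with 948 genes and 1 member at an unadjusted p under 0.05, *Gas5* (log2 difference −0.26, SE 0.125). DESeq2 and limma-voom called 0 members there, and 27 and 39 genes. The difference between the cell types in the effect of Il27ra -/- against WT after Ang II called 0 of 9 members against 0.05% of 18013 genes by edgeR, with 0 members at an unadjusted p under 0.05 and 0 by DESeq2 and limma-voom. The comparisons with WT share the same WT libraries.

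**Figure D4:**
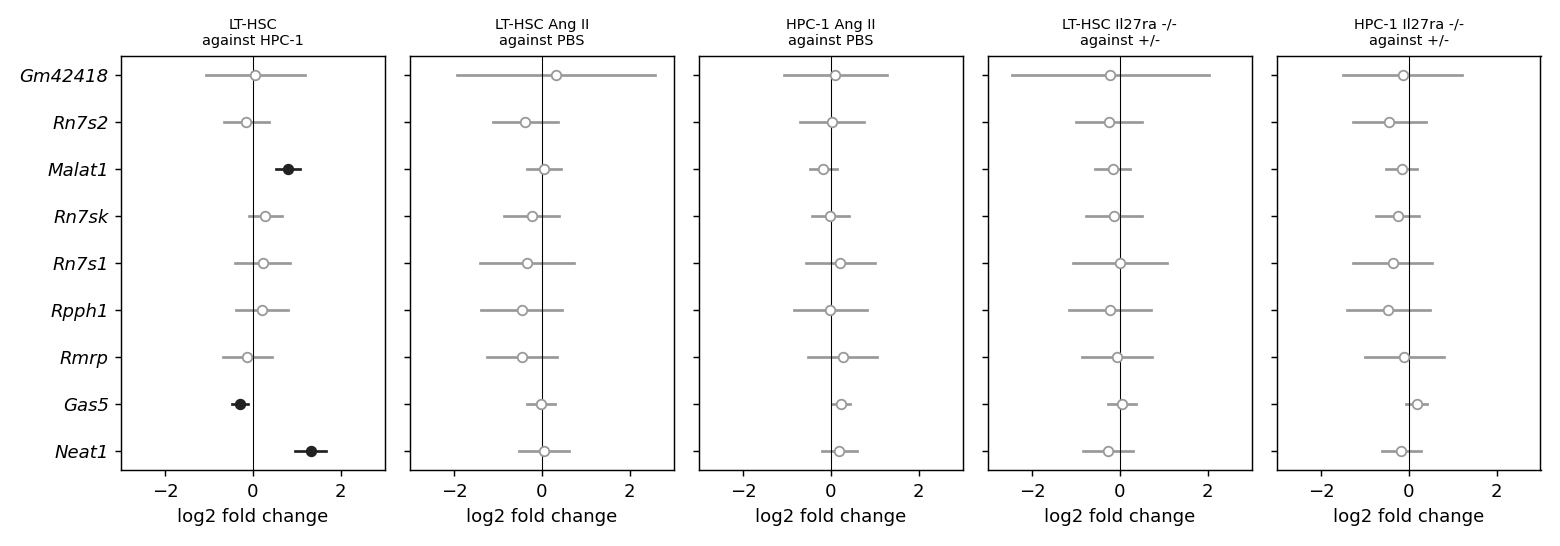
Log2 fold change with its 95% interval of each noncoding RNA in 5 comparisons, with filled points where edgeR's adjusted p is under 0.05. *Malat1* (0.80), *Neat1* (1.32) and *Gas5* (−0.30) are filled in LT-HSC against HPC-1, and none is filled in the comparisons of Ang II with PBS or of Il27ra -/- with +/-.

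The members also varied among themselves. Over the 36 pairs of the 9 members in the 3 sets, 108 values of r in all, the lowest was −0.6251, the median 0.424 and the highest 0.995, and 84 were above 0. Adjusted over all genes, separately for each member and set, 2 pairs passed. In the 9 LT-HSC Y-linked libraries, *Rn7sk* and *Rpph1* had r = 0.977 (exact permutation p = 2.76e-06, the smallest that 9 libraries can give, adjusted 0.0483), rho = 1 (exact permutation p = 5.51e-06) and r = 0.954 without the 2 libraries farthest from the median of *Rn7sk*. For each of them the other was the 1 of 8 members called there, against 0.00571% of 17521 genes. In the 15 HPC-1 Y-linked libraries, *Rpph1* and *Rn7s2* had r = 0.900 (permutation p = 1e-05, the smallest these permutations can give, adjusted 0.0177 among relations of *Rpph1* and 0.0590 among those of *Rn7s2*), rho = 0.896 (permutation p = 3e-05) and r = 0.854 without 2 libraries. *Rn7s2* was the 1 of 8 members called with *Rpph1* there, against 0.288% of 17693 genes, but its counts rest on the split from *Rn7s1*, so nothing is read from it about 7SL.

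The RNAs of RNase P and RNase MRP did not pass in any of the 3 sets. They had r = 0.962 in the 9 LT-HSC Y-linked libraries (exact permutation p = 0.000146, adjusted over all genes 0.0805), 0.899 in the 8 LT-HSC *Xist* libraries (exact permutation p = 0.00645, adjusted 0.720) and 0.721 in the 15 HPC-1 Y-linked libraries (permutation p = 0.00214, adjusted 0.274). Their rho was 0.883 (exact permutation p = 0.00308), 0.714 (exact permutation p = 0.0576) and 0.75 (permutation p = 0.00175) in these sets, and r without the 2 libraries farthest from the median of *Rpph1* 0.955, 0.974 and 0.658. The genes most like the polymerase III transcripts over the 36 libraries are given as a description. They were the cell division gene *Zwint* (r = 0.649), *2310033P09Rik* (0.645) and *Bex3* (0.631) for *Rn7s1*, the small nucleolar RNAs *Rnu3a* (r = 0.873) and *Snora23* (0.854) for *Rn7s2*, the Cajal body RNA *Scarna10* (0.936) for *Rn7sk*, *Gm24407* (0.904) and *Snora73b* (0.884) for *Rmrp*, and *Gm22513* (0.930) and the Y RNA *Rny1* (0.901) for *Rpph1*. Within the 15 HPC-1 Y-linked libraries, *Scarna10* had r = 0.943 to *Rn7sk*, *Rnu3a* 0.875 to *Rn7s2* and *Rny1* 0.925 to *Rpph1*.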

How the data were processed

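The authors prepared stranded total RNA libraries from 5000 sorted cells and deposited RSEM expected counts per Ensembl gene on mm10, rounded to whole numbers (0 values not whole), with STAR named in the paper and Bowtie2 in the processing notes. By the paper, cDNA of ribosomal RNA was bound by probes and cleaved during library preparation. Per the labels, 36 libraries fall in 12 groups of cell type, agent and *Il27ra* genotype, and the labels give no sex, age or batch. Totals of 1980283 to 6861078 counts (median 3139364) set the precision of a share. Counts were fitted with edgeR 4.0.16 (filterByExpr, TMM, robust quasi-likelihood F tests, R 4.3.3) in 1 model of all groups for comparisons of cell types and 1 model a cell type otherwise, with Benjamini-Hochberg adjustment over all genes tested and calls at an adjusted p under 0.05, all two-sided. Alternatives were DESeq2 1.42.0, limma-voom (limma 3.58.1), other scalings, filters, covariates and subsets, and each library left out. Code was tested on simulated data. CPM are TMM-normalised, with a prior count of 2 in log2 values.

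Members and lists were chosen with earlier results of these data known. The split by *Xist* and Y-linked counts, the libraries that stand apart and the subsets by class were chosen after seeing the data. Relations were planned within each cell type with adjustment over members, and were instead computed within cell type and class, because sex-linked transcripts and depth form clusters, with permutation p-values (exact for 8 and 9 libraries, 100000 permutations for 15) adjusted over all genes. All members are named, with the 3 genes most alike to each over 36 libraries and up to 4 genes with the smallest adjusted p from each context list. From the list of the 7SK particle and P-TEFb the genes not called are named too. Some items under these rules are not reported here. Context lists were polymerase III machinery, signal recognition particle, 7SK particle and P-TEFb, RNase P and RNase MRP proteins, paraspeckle proteins, nuclear speckle proteins, small nucleolar RNA hosts, other long noncoding RNAs, other small RNAs, ribosomal RNA loci and mitochondrial mRNAs. Marker lists were LT-HSC, HPC-1 and multipotent progenitors, stem and progenitor gate, granulocyte, erythroid, B lymphoid, megakaryocyte and intestinal epithelium. Gene positions are from GENCODE vM21 and promoters from RefSeq. Rows without a symbol held 0.374% of counts. Python 3.11.15 with numpy 2.4.6, pandas 2.3.3, scipy 1.17.1 and matplotlib 3.10.9 made shares, relations and figures.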

Additional observations from a re-analysis of the deposited data

Results flagged for a closer look

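A library was flagged where the gap from its share to the next took up most of the range of the 4 libraries of its group, in 48 sets of 12 measures and 4 groups of 4 libraries, a rule under which chance flags about 1 in 20 groups. In HPC-1 Ang II Il27ra -/- replicate 4, *Rn7s2* held 2.73% (next in its group 1.04%), *Rmrp* 0.299% (next 0.0884%), *Rpph1* 0.745% (next 0.200%) and *Rn7s1* and *Rn7s2* summed 3.31% (next 1.31%). *Rpph1* was also high in HPC-1 Ang II Il27ra +/- replicate 4 at 0.772% (next 0.376%) and in LT-HSC Ang II Il27ra -/- replicate 3 at 0.737% (next 0.271%). *Gas5* was low in LT-HSC Ang II Il27ra -/- replicate 2 at 0.0247% (next 0.0460%), the library with the high granulocyte sum. The other 3 of these 4 libraries are *Xist* libraries over 4000000 counts, and the differences were not tested.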

How the results depend on the processing

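Of 153 counts of members called under alternative settings, 5 moved by over 1.5 times or from 0, and of 288 with a library left out 0 did. Within that limit, LT-HSC against HPC-1 gave 2 members in place of 3 with library totals only, 4 among Y-linked libraries alone and 2 without HPC-1 PBS Il27ra +/- replicate 1. The 5 came with no filter beyond a total count of 1. There LT-HSC against HPC-1 gave 6 members in place of 3, by *Rn7s1* (0.22, adjusted p = 0.0163), *Rn7sk* (0.28, adjusted p = 0.000216) and *Rpph1* (0.21, adjusted p = 0.0210), and Il27ra -/- against WT in Ang II LT-HSC gave 3 in place of 0 (*Rn7s1* −0.91, *Rn7s2* −0.79, *Gm42418* −1.36). Il27ra +/- against WT in Ang II LT-HSC gave 2 (*Rn7s1* −0.83, *Gm42418* −1.16), and 2 each came from the differences between cell types in the Ang II effect and in the Ang II effect of Il27ra -/- against WT. With that filter the SE of *Gm42418* in Il27ra -/- against WT was 0.198 in place of 1.58.

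Between cell types, log2 differences over 13 alternatives were 0.78 to 0.90 for *Malat1* (13 called), 1.30 to 1.43 for *Neat1* (13 called) and −0.45 to −0.20 for *Gas5* (12 called). With each library left out they were 0.74 to 0.94, 1.25 to 1.48 and −0.34 to −0.22 (35 of 36 called). *Gas5* was not called with library totals only (−0.20, adjusted p = 0.0960) or without HPC-1 PBS Il27ra +/- replicate 1 (−0.22, adjusted p = 0.0641). *Rn7sk* was called among Y-linked libraries alone (0.45, adjusted p = 0.0260), a subset chosen after seeing the data. The cause was not tested. With the members, or the members and ribosomal RNA loci, left out of the total, all 18 mean shares moved by less than their SD between libraries (*Gm42418* 4.27% in place of 3.81%).

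With a replicate block, *Malat1* had 0.78 (adjusted p = 3.97e-08), *Neat1* 1.30 (adjusted p = 5.8e-07) and *Gas5* −0.29 (adjusted p = 0.00508), with 3 members called, and 0 in all other comparisons. By the labels, libraries share a number only. The median correlation of same numbers was 0.0460 within a cell type (15 of 68 over 0.1) and 0.0230 between them (22 of 84). For other numbers it was −0.0198 (17 of 182) and −0.0133 (21 of 220), so same numbers were over 0.1 more often. Of 17 pairs of the same number, 4 differ in *Xist* class. Scaling to library totals only moved the median of all genes by over 0.1 log2, to 0.13 from 0.03 between cell types, to 0.30 from 0.14 for Il27ra -/- and to 0.23 from 0.09 for Il27ra +/- against WT in Ang II LT-HSC. *Xist* libraries alone gave no value for comparisons with WT, between cell types or within HPC-1. Where 1 library of a group was left, it was taken to vary like the others.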

Other observations

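Other noncoding RNAs were read from the fit of LT-HSC against HPC-1, in which 36.3% of all genes were called, and no list was tested against all genes. Of 13 other long noncoding RNAs tested among 20 listed, 4 were higher and 3 lower in LT-HSC by edgeR (median log2 difference 0.15). The imprinted *Meg3* was at a mean of 80.2 CPM in LT-HSC and 1.61 CPM in HPC-1 (log2 difference 5.31, SE 0.504, adjusted p = 7.75e-09), *Airn* had 4.37 (SE 0.580, adjusted p = 1.46e-07), the X-linked *Firre* 1.14 (SE 0.189, adjusted p = 5.8e-06) and *Dleu2* −0.71 (SE 0.139, adjusted p = 7.05e-05). Of 12 hosts of small nucleolar RNAs tested among 21 listed, 3 were higher and 3 lower (median −0.15). *Rian*, of the same imprinted locus as *Meg3*, had 31.4 against 1.17 CPM (log2 difference 4.49, SE 0.5004, adjusted p = 6.54e-08), *Mir22hg* 2.62 (SE 0.835, adjusted p = 0.0117), *Snhg5* −0.93 (SE 0.128, adjusted p = 1.82e-07) and *Zfas1* −0.69 (SE 0.148, adjusted p = 0.000229).

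Of 19 other small RNAs tested among 25 listed, 1 was higher and 0 lower (median 0.09): *Scarna2*, at 201 against 128 CPM (log2 difference 0.62, SE 0.211, adjusted p = 0.0234). Of 6 other ribosomal RNA loci, 1 had a row, *Gm26917*, at 460 against 440 CPM (log2 difference 0.12, SE 0.319, adjusted p = 0.914). None of the 13 mitochondrial mRNAs had a row, and they were not analysed here.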
